A study of Mus musculus with 9 samples.

Results

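Binding of the nuclear protein DPPA4 was compared between E14 mouse embryonic stem cells and P19 mouse embryonal carcinoma cells, using the peak lists of 4 immunoprecipitated libraries, 2 per line. These lists hold 196343 of the 229345 peaks deposited for the 6 libraries of the series that have a list. They were chosen by the cell line in their titles, and every peak in them was kept. The other 2 lists, from 3T3 fibroblasts, entered no comparison.

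E14 is an established embryonic stem cell line, cultured here without feeder cells on gelatin in 2i medium with serum, which holds stem cells in an undifferentiated state by blocking kinases. P19 is an established line from a mouse teratocarcinoma, cultured here in DMEM with serum and glutamine. No transgene is given for either line in the labels, in contrast to the 3T3 cells, which carried Dppa4 ectopically. The line and its medium cannot be told apart, since each line was grown in 1 medium. The protocol is given as the same for both lines, with sonicated nuclei, an R&D Systems antibody against DPPA4 and a Nextera library kit. Whether the 2 libraries of each line stem from different cultures is not stated in the labels. Differences between them may thus be purely technical. Peak lists carry no expression values, so the identity of the cells was not checked against marker genes. The input libraries, 1 per line, were not analysed here, so differences in DNA copy number between the lines were not tested.

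DPPA4 (developmental pluripotency associated 4) is a chromatin protein of pluripotent cells, early embryos and germ cells. It carries a SAP domain, a DNA-binding fold, and acts together with its relative DPPA2. In embryonic stem cells the pair is known for keeping developmental gene promoters open to later activation. P19 cells share much of the expression programme of stem cells and are widely used to follow differentiation to neurons and muscle. No gene is named below, because the lists use mm9 coordinates and the annotation used here is of a later build.

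Peak numbers did not separate the lines. The E14 libraries held 61693 and 43443 peaks and the P19 libraries 40011 and 51196, so the numbers overlapped. The median width was 411 and 772 bp in E14 and 453 and 540 bp in P19. Width went with the score of a peak in every list, with rank correlations across peaks of 0.89 and 0.73 in E14 and 0.86 and 0.85 in P19. The score is the one given in the deposited lists, and its scale is not named there. Its median was close in the 4 lists, at 122.8 and 128.4 in E14 and 127.6 and 138.1 in P19. The upper end differed. Peaks at 3100 or above, a value at which many peaks are tied, made up 0.321% and 0.322% of the E14 lists and 3.50% and 4.12% of the P19 lists. Peaks tied at 3100 cannot be ordered, so the strongest sites of P19 are less finely ranked than those of E14. Read depth is unknown, so the lack of a peak does not separate sites without DPPA4 from sites too weak to be called.

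Nearly all of the strongest sites of each line were bound in the other. Among the 5000 best-scoring peaks of a library, 17 and 19 of the E14 peaks overlapped no peak in either P19 library. For P19 the counts were 16 and 13 without a peak in either E14 library. As shares these were between 0.26% and 0.38%. The share with no peak in the other line grew down the list, to between 2.87% and 3.49% of the best 20000 peaks and to between 12.6% and 17.3% of the best 40011. The libraries of both lines followed the same course.

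Agreement at equal rank was a stricter measure, because a site had to be among the best of both lists. When every list was limited to its 5000 best peaks, the E14 replicates overlapped by 75.4% and the P19 replicates by 92.8%. The 4 pairings of an E14 with a P19 library overlapped by 57.7% to 70.0%. At 20000 peaks the values were 83.3% for E14, 85.5% for P19 and 71.4% to 75.3% between the lines. With 40011 peaks, the length of the shortest list, the replicates overlapped by 80.7% and 79.6% and the lines by 70.7% to 73.8%. At each of the 5 lengths tried, both replicate pairs lay above all 4 pairings of the lines. The Jaccard index of covered bases (intersection divided by union) was computed with all peaks. It averaged 0.542 between replicates and 0.480 between lines. Permuting the line labels exactly, with 3 possible pairings of the 4 libraries, gave p = 0.33. That is the smallest p available, so this design cannot pass a threshold.

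**Figure D1:**
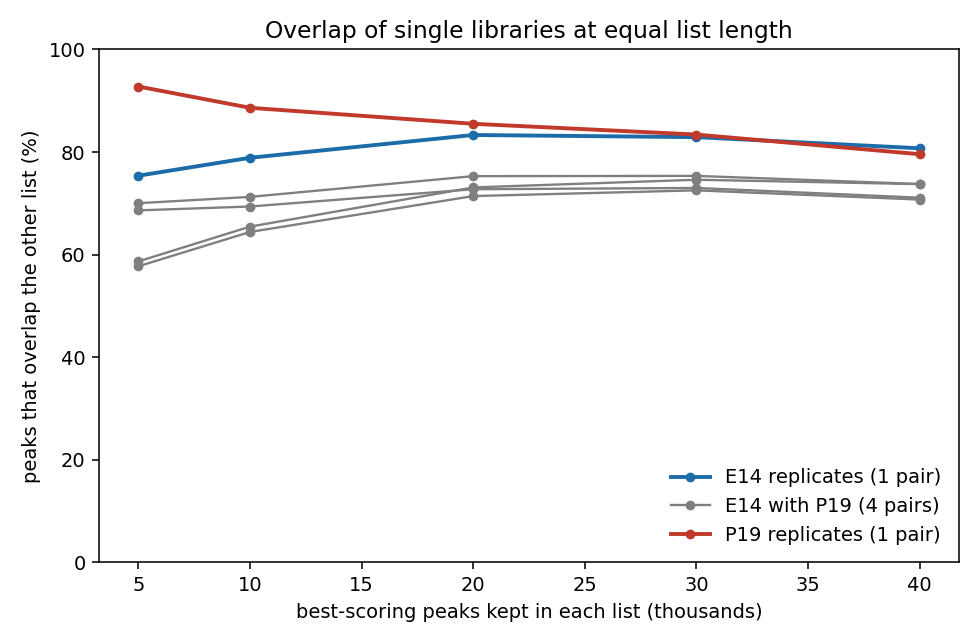
Share of peaks overlapping the other list by at least 1 bp (y axis, percent, mean of both directions) against the number of best-scoring peaks kept in each list (x axis, in units of 1000 peaks), for the 6 pairs of libraries. The replicate pairs of E14 and P19 lie above the 4 pairs of E14 with P19 at every length. At 5000 peaks the P19 replicates stand at 92.8%, the E14 replicates at 75.4% and the pairs across lines at 57.7% to 70.0%.

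A reproducible region was defined as the union of overlapping peaks of both libraries of a line, and overlapping regions from E14 and P19 were then joined. This gave 43907 regions. Both lines held 25443 of them (57.9%), E14 alone 11661 (26.6%) and P19 alone 6803 (15.5%). In the terms of each line, 79.4% of the 32963 P19 regions (Wilson 95% interval 78.9 to 79.8) and 68.8% of the 37337 E14 regions (68.3 to 69.2) overlapped a region of the other. These intervals cover counting error only and treat regions as independent.

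The number of regions of a single line depended on which libraries were kept. E14 alone held 30635 regions without E14 replicate 2 and 6323 without P19 replicate 1. P19 alone held 18524 without P19 replicate 1, 10720 without P19 replicate 2 and 4044 without E14 replicate 2. P19 alone held more than E14 alone without P19 replicate 1 and, with 10720 against 10588, without P19 replicate 2. A line with 1 library left counts every peak of that library as a region, which favours a larger count for that line. These settings therefore cannot show whether the larger count for E14 is stable. Settings that treat both lines alike kept it. Peaks of either library gave 21808 for E14 alone and 12547 for P19 alone, and lists of equal length 8208 and 7112. Peaks of a single library also lay in many of these regions. Of the E14 regions without P19, 44.9% had a peak in P19 replicate 2 alone and 8.71% in P19 replicate 1 alone. Of the P19 regions without E14, 42.0% had a peak in E14 replicate 1 alone and 14.02% in E14 replicate 2 alone. In each case the longer list of the other line supplied most of them. Regions with no peak at all in the other line numbered 5303 in E14 (14.2% of its regions) and 2976 in P19 (9.03%).

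Regions held by 1 line were weak and narrow. In E14, regions of both lines had a median percentile of 77.7 and 69.03 in the 2 libraries (100 for the strongest peak of a list), against 48.4 and 32.4 for regions of E14 alone. Regions with no P19 peak lay lower still, at 41.6 and 26.4. P19 showed the same order, with medians of 65.8 and 73.7 for both lines, 32.9 and 43.8 for P19 alone, and 30.2 and 40.2 for regions with no E14 peak. The order held in each of the 4 libraries. The median width fell from 969 bp in regions of both lines to 691 bp in E14 alone and 519 bp in P19 alone. Of the 80 regions of 4000 bp or more, 78 were held by both lines. Of the 4631 regions under 500 bp, 332 were (7.17%). Regions of both lines join peaks of 4 libraries, which makes them wider by construction.

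**Figure D2:**
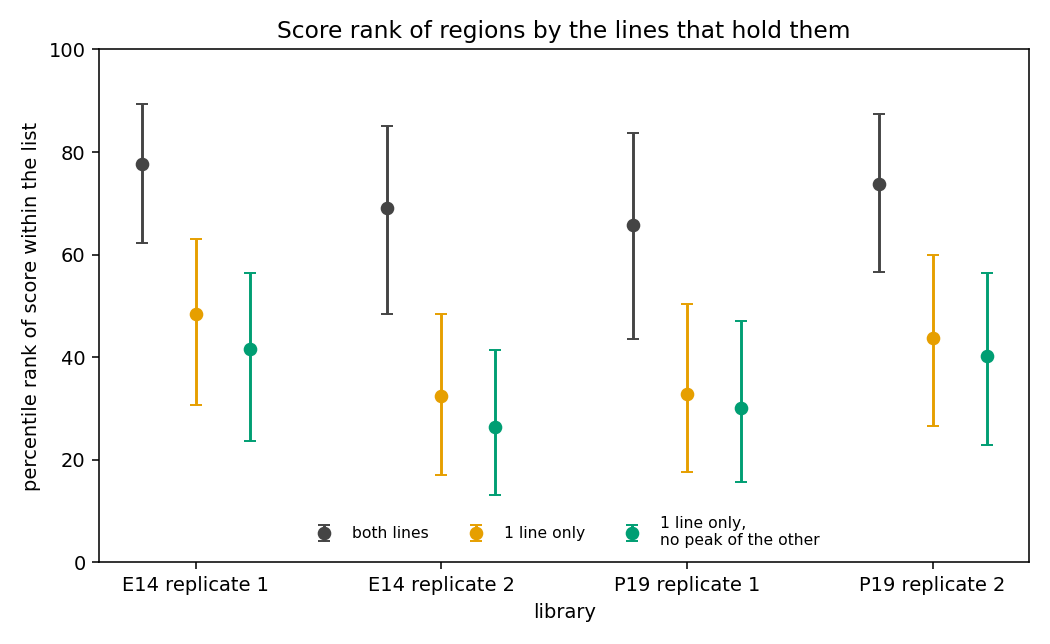
Percentile rank of the best peak of a region within its library's list (y axis, 100 is strongest) for regions of both lines, of that line only, and of that line with no peak in either library of the other. Points are medians and bars the quartiles over regions. Regions of both lines rank highest in each library, and those with no peak of the other line lowest.

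Regions of P19 alone lay closest to regions of both lines. The median distance was 24.9 kb for regions of both lines (to the next one), 21.9 kb for E14 alone and 16.1 kb for P19 alone. The share lying within 10 kb was 32.0%, 32.7% and 39.4%. Regions standing alone between other kinds made up 49.3% of those of E14 alone and 63.1% of those of P19 alone. Runs of 3 or more consecutive regions of 1 line numbered 767 for E14 and 267 for P19, with 13 and 7 regions in the longest. Single regions and runs depend on how common a kind is. E14 alone made up 26.6% of the merged regions and P19 alone 15.5%, so these values do not compare the clustering of the lines.

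A few strong sites were nevertheless absent from the other line. Regions with no peak of the other line and a percentile of at least 90 in both libraries of their own numbered 11 of 5303 in E14 and 8 of 2976 in P19. The leading pair in E14 scored 3100 in both E14 libraries. One region lies on chromosome 3 (27639440 to 27640917), the next on chromosome 18 (15076388 to 15077341). The first stands 28.9 kb from the nearest region of both lines. The second is isolated, with no other region within 50 kb and 134 kb to the nearest region of both lines.

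The third and the fourth E14 region lay close together on chromosome 17. The region from 35560935 to 35563324 scored 3100 and 2783 in the E14 libraries, and that from 35530349 to 35532453 scored 1698 and 1564. A neighbour from 35575440 to 35577601 scored 2250 and 1627 in E14 and had a peak in P19 replicate 1 alone, which scored 54.3. These 3 regions had percentiles between 98.3 and 99.8 in the E14 libraries. The nearest regions on either side that both lines held ranked higher in both P19 libraries than in both E14 libraries. The one from 35606682 to 35608459 was stronger in P19, with scores of 1217 and 1698 and percentiles of 90.8 and 92.9, against percentiles of 70.3 and 55.2 in E14. The one from 35516385 to 35517933 had percentiles of 65.6 and 77.1 in E14 and of 80.4 and 82.1 in P19. The fifth E14 region, on chromosome 2 (10983428 to 10984359), scored 1464 and 1241.

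The strongest P19 regions without an E14 peak had percentiles between 91.5 and 94.99. None of the P19 regions without an E14 peak scored 3100 or above, so the ties do not enter their percentiles. More P19 peaks reached that score, 3.50% and 4.12% of the lists against 0.321% and 0.322% in E14. Peaks below it thus start from a lower percentile in P19. A tied score of 3100 stands at 98.1 and 97.8 in the P19 libraries, against 99.8 in both of E14. The first, on chromosome 5 from 23336699 to 23337661, scored 2390 and 2591 in the P19 libraries, which are percentiles of 94.99 and 94.92. The second lay on chromosome 17 from 7031858 to 7032965 and scored 2184 and 2492. The third, on chromosome 6 from 148302679 to 148304174, scored 1629 and 2622 and had no other region within 50 kb. A region of chromosome 15 (83197086 to 83198250) scored 1529 and 2042, and one of chromosome 18 (43637055 to 43637792) scored 1350 and 2161. None of the P19 regions without an E14 peak reached a percentile of 95 in both P19 libraries, against 5 such regions in E14. At lower limits the order was the opposite, with 3.125% of these P19 regions and 1.09% of those of E14 at 75 or above, and 17.4% and 10.3% at 50 or above.

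Regions at the top of all 4 lists were ordered by the lowest of their 4 percentiles, with ties listed widest first. The regions after the first are tied, so their width is partly set by this order. The first place rests on the ties as well, because a tied score of 3100 stands at 97.8 in P19 replicate 2. The first region scored above the tie in both P19 libraries, and its lowest percentile was 98.2, in E14 replicate 2. The first lay on chromosome 6 from 47693162 to 47702005, 8844 bp wide. Its scores were 2190 and 1550 in the E14 libraries and 3166 and 3186 in those of P19. It had 7 further regions of both lines within 50 kb and none of a single line. Regions of chromosome 15 (76001850 to 76014545, 12696 bp) and chromosome 12 (114013609 to 114023226, 9618 bp) followed, both at 3100 in all 4 libraries. The remaining ones were found on chromosome 8 (72403844 to 72412210, 8367 bp) and chromosome 1 (172998051 to 173005372, 7322 bp). Each of the 5 scored at least 3100 in both P19 libraries.

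Where both lines bound, the order of strength agreed less between the lines than between the libraries of a line. Whether this exceeds the variation between cultures of 1 line was not tested. A peak of all 4 libraries was found in 25568 merged regions, and each library was ranked over these regions alone, so that the length of the list plays no part. The rank correlation over regions was 0.84 for the E14 replicates, 0.90 for the P19 replicates and 0.61 to 0.71 across lines. Regions share their genome and their neighbours and are not replicates, so no p is given. The median difference in rank was 9.82 percentile points between the E14 libraries and 5.82 between the P19 libraries. Between the lines it was 12.5 to 15.7 points. Without regions at 3100 or above in either library of a pair, the correlations were 0.83 in E14, 0.87 in P19 and 0.55 to 0.64 between lines.

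The centre of a shared site was placed almost alike in all 4 libraries. In the 20940 common regions with exactly 1 peak of each library, the midpoints of E14 and P19 peaks lay 42.5 to 60.5 bp apart (medians of the 4 pairings). Midpoints lay 54 bp apart in the E14 replicates and 41 bp apart in the P19 replicates. The 3 pairs that include E14 replicate 2, the library with the widest peaks, gave 54 to 60.5 bp, and the other 3 pairs 41 to 43 bp.

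A common region was called higher in a line where both its ranks exceeded both ranks of the other line by at least 20 percentile points. Of the 25568 regions, 1649 were higher in E14 (6.45%) and 2160 in P19 (8.45%). With no minimum gap, both ranks of E14 lay above both of P19 in 8152 regions (31.9%), and the reverse held in 8068 (31.6%). The counts with the gap grew when 1 library was left out. Fewer values then have to be exceeded, and the common regions also rose in number, to between 26549 and 30814. Counts are therefore given with their share of the common regions of the same setting, and these shares grew as well. For E14 the counts were 2835 (10.7%) without E14 replicate 1 and 3906 (13.6%) without E14 replicate 2. With P19 replicate 1 left out the E14 count was 2949 (9.57%), and with P19 replicate 2 left out 3117 (11.7%). For P19 the counts were 3402 (12.8%) without E14 replicate 1 and 4021 (13.99%) without E14 replicate 2. They were 3117 (10.1%) without P19 replicate 1 and 3120 (11.7%) without P19 replicate 2. Large gaps were more frequent on the P19 side, at 40 points or more in 533 of its 2160 called regions, against 228 of 1649 in E14.

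**Figure D3:**
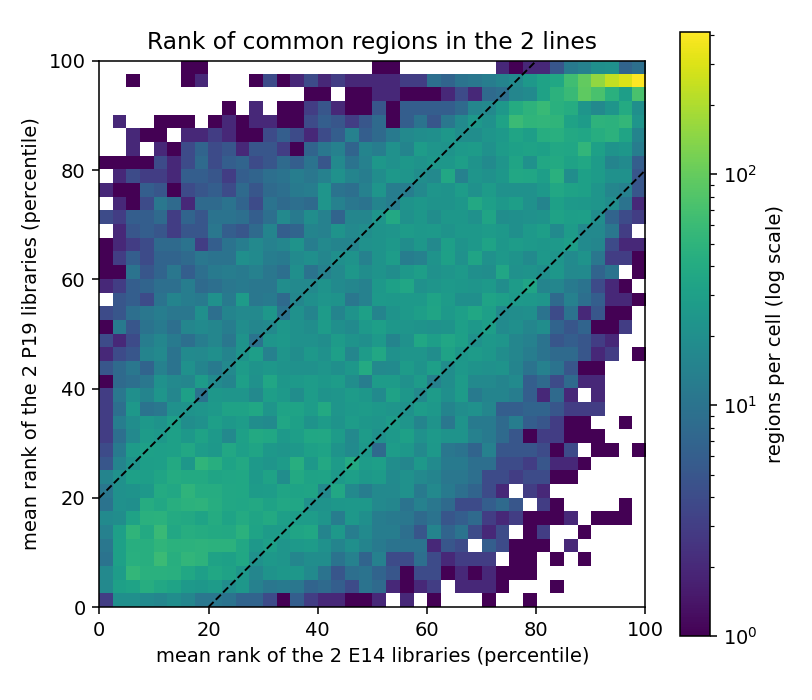
Mean rank of the 2 E14 libraries (x axis, percentile) against that of the 2 P19 libraries (y axis, percentile) for the 25568 regions with a peak in all 4 libraries. Colour gives the number of regions per cell on a log scale, and the dashed lines mark a difference of 20 points. Most regions lie along the diagonal, with a wider scatter to the upper left than to the lower right.

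In the line where they ranked higher, the called regions were mostly of middling rank. Regions higher in E14 had median ranks of 69.5 and 64.9 in E14 and of 22.3 and 24.7 in P19. Those higher in P19 had median ranks of 70.3 and 69.7 in P19 and of 22.5 and 25.3 in E14. Both ranks lay in the top 10% in 68 of the 1649 E14 regions and in 105 of the 2160 P19 regions. At most 10% of all common regions can meet this limit, and their share was not computed. Peak width, which the call did not use, moved with the rank. In regions higher in E14, the summed peak length had a median of 823 and 1043 bp in the E14 libraries, against 664 and 907 bp over all common regions. In P19 it was 469 and 674 bp, against 587 and 746 bp over all. Regions higher in P19 showed the opposite, with 514 and 783 bp in E14 and 679.5 and 832 bp in P19. Since score and width go together in each list, this is not a separate line of evidence. Neighbours were sometimes called together. Among regions higher in P19, 555 had another common region within 10 kb downstream. Of these, 91 (16.4%) were followed by one called the same way, against 8.45% of all common regions. For E14 it was 31 of 299 (10.4%), against 6.45%. The shares over all common regions were not limited to regions with a close neighbour or matched by chromosome.

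The widest gaps were found at single sites on several chromosomes. The first region higher in E14 lay on chromosome 14 from 93328833 to 93329995. It scored 776 and 499 in E14 and 52.3 and 60.5 in P19, with ranks of 80.6 and 78.99 against 1.496 and 1.92. The next ones lay on chromosome 6, from 131204346 to 131204956 with ranks of 88.1 and 81.1 against 1.496 and 4.57, and from 30686808 to 30688832 with ranks of 94.6 and 96.6 against 19.6 and 14.01. Regions of chromosome 8 (119324930 to 119325871) and chromosome 14 (79700326 to 79702061) had gaps of 71.7 and 69.9 points. Over these 5 regions the lowest E14 score was 499 and the highest P19 score 156.

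The first region higher in P19 lay on chromosome 3 from 65469747 to 65470766. It was tied at 3100 in both P19 libraries, with ranks of 97.1 and 95.7, and scored 107 and 51.3 in E14, with ranks of 10.1 and 0.57. The second, on chromosome 12 (115616767 to 115617645), had ranks of 87.0 and 89.3 in P19 against 2.69 and 5.16 in E14. The third, on chromosome 11 (84332430 to 84334251), had ranks of 88.4 and 87.9 against 6.32 and 1.39. Regions of chromosome 12 (77518288 to 77519112) and chromosome 2 (128717805 to 128718596) had gaps of 77.8 and 77.2 points. Over these 5 regions the E14 scores lay between 51.3 and 107, close to 50, the lowest score in the lists.

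Among the autosomes and X, the ratio between the lines was furthest from equality on chromosome 11. It took 7.51% and 7.19% of the E14 peaks and 8.66% and 8.65% of the P19 peaks, a ratio of the means of 1.18. Chromosome 6 followed, with 4.70% and 4.91% in E14 and 5.42% and 5.39% in P19, a ratio of 1.12. On chromosome 11, P19 alone held 860 regions and E14 alone 686, the one chromosome among the autosomes and X on which P19 alone held more. E14 held 68.7% of the P19 regions there, against 79.4% over the genome. Common regions on chromosome 11 also ranked higher in P19. The median rank difference, E14 minus P19, was -4.02 points over 1896 regions, and lay between -5.70 and -2.31 in the 4 pairings of libraries. Of these regions 259 (13.7%) were called higher in P19, against 8.45% of all common regions, and 69 (3.64%) higher in E14, against 6.45%. On chromosome 6 the median difference was -1.86 points over 1339 regions (-2.45 to -0.94). On the other autosomes and X the median difference lay between -0.38 and 2.68 points. Peaks per library and ranks thus pointed the same way on chromosomes 11 and 6. Counts of regions did so on chromosome 11 only. On chromosome 6, E14 alone held 492 regions and P19 alone 429, and E14 held 75.7% of the P19 regions. All these values come from the same lists and are not independent.

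The excess on chromosome 11 was spread along its length. Of its 97 bins of 1 Mb with a mean of at least 10 peaks over the 4 libraries, 57 (58.8%) had both P19 shares above both E14 shares. Over all 1633 such bins of the genome 348 did (21.3%). The reverse order was found in 2 bins of chromosome 11 (2.06%) and in 376 of all bins (23%). On chromosome 6, 40 of 105 bins had higher P19 shares (38.1%) and 12 lower ones (11.4%).

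Shares of a list add to a fixed sum, so a gain on some chromosomes lowers the others. With all peaks, 11 of 22 chromosome groups (50%) had both E14 shares above both P19 shares, and 4 of 22 (18.2%) the reverse. The 4 were chromosomes 11, 6, 15 and 18. With the peaks of chromosomes 6 and 11 left out, E14 shares lay above P19 shares for 5 of the remaining groups, namely chromosomes 10, 14, 16 and 19 and the Y chromosome with its contigs. P19 shares then lay above for 4, namely chromosomes 7, 9, 15 and 18. The Y chromosome with its contigs took 0.423% and 0.467% of the E14 peaks and 0.300% and 0.281% of the P19 peaks. With 261, 203, 120 and 144 peaks, this was the largest ratio of means among the groups, 1.53. Chromosome 14 came next on the E14 side, at 3.47% and 3.55% against 3.14% and 3.13%.

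**Figure D4:**
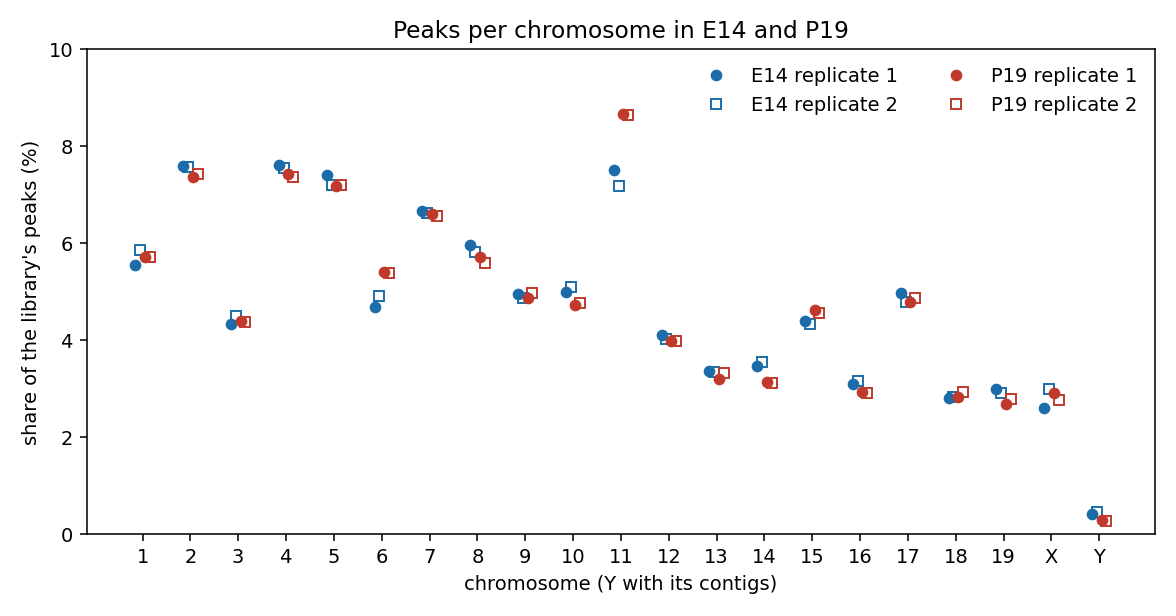
Share of each library's peaks (y axis, percent) by chromosome (x axis), with 1 point per library, E14 in blue and P19 in red. The P19 points lie above the E14 points on chromosomes 11 and 6 by more than the distance between replicates.

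At a scale of 1 Mb the lines were close. The rank correlation of shares over the 1633 bins was 0.92 for the E14 replicates, 0.90 for the P19 replicates and 0.85 to 0.90 across lines. Neighbouring bins are not independent. Both E14 shares were at least 1.5 times both P19 shares in 18 bins (1.1%), and the reverse held in 4 bins (0.245%). These counts were 34 and 10 without P19 replicate 1 and 67 and 14 without P19 replicate 2. Leaving out E14 replicate 2 gave 31 and 23, and leaving out E14 replicate 1 gave 18 and 22. The excess of E14 bins was thus lost without E14 replicate 1.

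**Figure D5:**
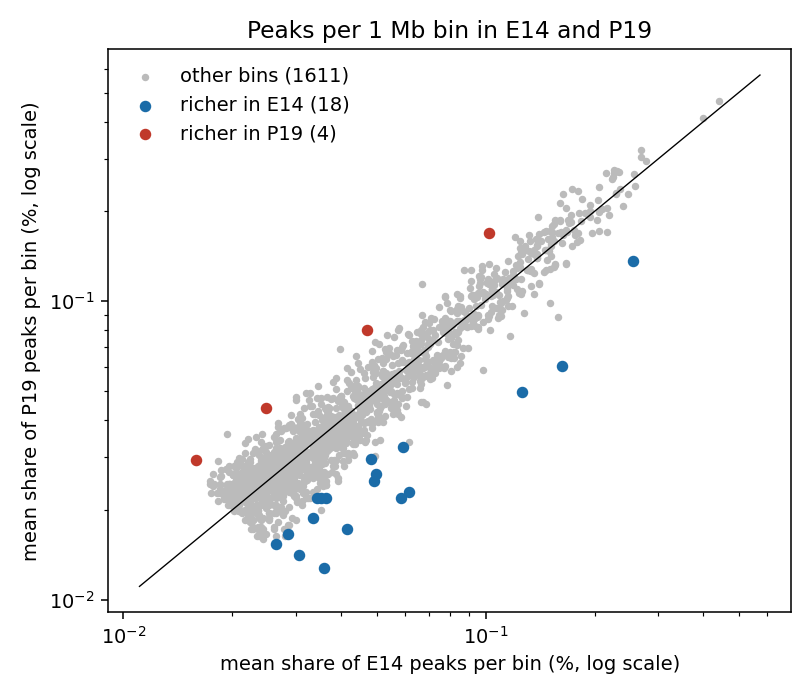
Mean share of the E14 peaks (x axis, percent, log scale) and of the P19 peaks (y axis, percent, log scale) in each of 1633 bins of 1 Mb. Coloured bins have both shares of 1 line at least 1.5 times both of the other, 18 for E14 and 4 for P19, and the line marks equal shares. Most bins lie along that line.

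The bins with the largest E14 share relative to P19 lay on chromosomes 4 and 14. Of the 5 bins with the largest E14 excess, 3 lay on chromosome 4 and 2 on chromosome 14. The bin of chromosome 4 from 152000001 to 153000000 held 39 and 26 peaks in E14 and 9 and 12 in P19. That from 153000001 to 154000000 held 108 and 65 against 22 and 34, and that from 150000001 to 151000000 held 79 and 54 against 17 and 29. On chromosome 14, the bin from 121000001 to 122000000 held 35 and 26 peaks against 9 and 11, and that from 119000001 to 120000000 held 20 and 17 against 4 and 8.

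Joining bins showed how far these stretches reach, by a rule chosen after the bins were seen. Stretches of 3 or more consecutive bins in which both E14 shares exceeded both P19 shares by 1.3 times, numbered 2. Single bins passed this ratio in 2.63% of cases for E14 and in 1.22% for P19, and no stretch was found for P19. The first ran on chromosome 4 from 150000001 to 155000000. It held 496 and 315 peaks in E14 and 135 and 194 in P19, or 0.765 ± 0.056% of the E14 peaks and 0.358 ± 0.029% of the P19 peaks (SD, n = 2). The E14 share was 2.13 times the P19 share. The next bin toward the end of the chromosome, from 155000001 to 156000000, was not poor in P19, with a ratio of P19 to E14 of 1.06, and the bin before the stretch had a ratio of 0.841. 

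This stretch of chromosome 4 was chosen by its peak shares, so the counts of regions and the runs given here restate that choice. The rule did not use the ranks of common regions, but these come from the same lists. Of the 261 E14 regions in the stretch, 34.1% were held by P19, against 68.8% over the genome, and 112 had no P19 peak. P19 alone held 10 regions there. The 3 longest runs of regions of E14 alone in the genome lay inside it, with 13 regions from 153561093 to 153686736, 12 from 150805334 to 151268450 and 11 from 150081136 to 150460582. None of the 12 regions of the second run had a P19 peak in either library. The 89 common regions of the stretch had median ranks of 58.1 and 55.0 in E14 and 40.2 and 25.4 in P19. Of these, 24 were called higher in E14 (27.0%) and 2 in P19 (2.25%), against 6.45% and 8.45% of all common regions.

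The other stretch ran on chromosome 14 from 118000001 to 123000000. It held 141 and 103 peaks in E14 and 49 and 57 in P19, 0.233 ± 0.006% and 0.117 ± 0.008% of the peaks (SD, n = 2), a ratio of 1.99. Of its 79 E14 regions, 38.0% were held by P19, which likewise restates the choice of the stretch. Its 30 common regions had median ranks of 54.1 and 57.0 in E14 and 40.4 and 36.3 in P19, with 13 called higher in E14 (43.3%) and 5 in P19 (16.7%). Both shares were above those over all common regions, 6.45% and 8.45%, also the one against the direction of the stretch.

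On the P19 side the richest bins lay apart from each other. The bin of chromosome 1 from 13000001 to 14000000 held 15 and 11 peaks in E14 and 18 and 22 in P19, with 3 regions of P19 alone and none of E14 alone, while its 9 common regions ranked higher in E14 by a median of 14.9 points. The bin of chromosome 11 from 96000001 to 97000000 held 61 and 46 against 68 and 87, with 36 regions of P19 alone, 14 of E14 alone and 20 of both lines. Its common regions had a median rank difference, E14 minus P19, of -16.997 points. The others were the bin of chromosome 6 from 128000001 to 129000000, with 31 and 19 against 33 and 40 peaks, and that of chromosome 2 from 102000001 to 103000000, with 11 and 6 against 11 and 16. The longest runs of regions of P19 alone were short, with 7 regions on chromosome 2 (165671030 to 165753467), 6 on chromosome 5 (113752858 to 113891459) and 6 on chromosome 4 (132505881 to 132578519).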

How the data were processed

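Chromatin immunoprecipitation sequencing of DPPA4 was analysed in 4 libraries. The software listed in the submitters' processing notes is BWA 0.7.13-r1126 and SAMtools 1.3, with CASAVA 1.8 and bcl2fastq 1.8, on mm9. The deposited lists hold 5 columns, the last a score of unnamed scale, and peak names begin with MACS. Version, threshold and control of the caller were not given in the sources used here. Each library has its own list and counts as a replicate. Read depth is unknown.

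Overlap meant at least 1 bp. Percentiles rank scores within a list, or over common regions alone. Bins were 1 Mb, without Y and contigs. The code was tested on simulated data and ran in Python 3.11.15 with SciPy 1.17.1, pandas 2.3.3, Matplotlib 3.10.9 and NumPy 2.4.6. The 5 first regions or bins of each kind (3 for runs) were named, ordered by their lower percentile, gap, ratio or number of regions. Members, rules and lists were chosen with earlier results of these data known. Coordinates are 1-based. The gene annotation used here is of a later build, so peaks are given by position, with neither gene names nor sequences.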

Additional observations from a re-analysis of the deposited data

How the results depend on the processing

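Of 161 single values under the alternatives, 117 stayed close and 44 moved, and no ratio or signed difference turned its direction. The order between the lines did turn in places. Without P19 replicate 1, P19 alone held more regions than E14 alone (18524 against 6323). The same held without P19 replicate 2 (10720 against 10588). In both settings every peak of the remaining P19 library counted as a region, while E14 regions still needed both E14 libraries. Without P19 replicate 1 the shares held by the other line were 63.8% for P19 and 83.1% for E14. Without E14 replicate 1, 18 bins were richer in E14 and 22 in P19. With chromosomes 6 and 11 left out, chromosome 7 went from higher E14 shares to higher P19 shares. With the best-scoring 50% of each list, both lines held 14056 regions, E14 alone 6032 and P19 alone 4133, and 8 bins were richer in E14 and 8 in P19. With peaks of either library the 3 counts of regions were 41086, 21808 and 12547. Lists of equal length gave 11 bins for E14 and 8 for P19, bins of 500 kb gave 59 and 20, and bins of 2 Mb gave 6 and 1. Without the peaks of chromosomes 6 and 11, a setting chosen after the data were seen, 2 bins were richer in P19. A gap of 10 points called 3841 common regions for E14 and 4083 for P19, and a gap of 30 points 625 and 1122. Leaving out each library gave 63.8% to 87.7% of P19 regions held by E14, 50.3% to 83.1% of E14 regions held by P19, 26447 to 30785 regions of both lines, 6323 to 30635 of E14 alone, 4044 to 18524 of P19 alone, 2835 to 3906 common regions higher in E14, 3117 to 4021 higher in P19, 18 to 67 bins richer in E14 and 10 to 23 richer in P19. The excess of the replicate Jaccard index over that between lines, 0.062, ranged from 0.019 to 0.086 and was 0.019 without P19 replicate 1. Under the replicate block, which sets only equally numbered libraries against each other, 74.7% of P19 peaks and 64.7% of E14 peaks overlapped the other line and the Jaccard excess was 0.053. Libraries of the same number did not deviate together (r = 0.06 over ranks of common regions and -0.06 over bins), and no label ties them to a shared culture or day. On chromosome 11 the ratio of P19 to E14 shares stayed between 1.15 and 1.23. On chromosome 6 the median rank difference was -3.28 with the best 50% and -1.04 without P19 replicate 1. Unknown depth limits every count of missing peaks.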
